A study of Homo sapiens with 4 samples.

Results

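The Notch pathway genes examined in HCT116 cells, an established human colon carcinoma line, comprised the ligands JAG1, JAG2 and DLL1, the receptors NOTCH1, NOTCH2 and NOTCH3, the target genes HES1, HEY1 and NRARP, and ATOH1. Members were the probe sets whose only annotated symbol was 1 of these 10 genes, which gave 25 of 54675 probe sets on the array. All 10 genes had at least 1, out of 19775 genes that the array names singly. Biotinylated cRNA made from total RNA was measured on 4 Affymetrix arrays. They were HCT116 wt/GFP and HCT116 wt cells grown as spheroids, and HCT116 wt/GFP and HCT116 wt cells grown as a monolayer. Spheroids are rounded multicellular aggregates, and a monolayer is a sheet of cells on a flat surface. Both lines are HCT116, a single tumour line, and no detail beyond the names wt and wt/GFP was given in the sources used here for either line, nor was the age of the cultures or the number of cultures behind an array. Each line and culture condition had 1 array, so the 2 arrays of a condition differ in line, and p-values rest on how far the changes of the 2 lines disagreed, pooled with genes of like brightness, a spread that may be technical in part.

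Notch is a receptor that signals between touching cells. A Jagged or Delta-like ligand on one cell binds a Notch receptor on its neighbour, the receptor is cut by ADAM proteases and then by gamma-secretase, and the freed intracellular part enters the nucleus, where it joins the DNA-binding protein RBPJ and a Mastermind coactivator to switch on genes such as HES1, HEY1 and NRARP. In the intestinal crypt the pathway favours the absorptive over the secretory fate: HES1 represses ATOH1, the transcription factor that starts goblet, Paneth and enteroendocrine differentiation, and cells with ATOH1 display DLL1 and other ligands to their neighbours.

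In spheroids, 7 of the 9 Notch genes that passed a filter on low values rose and none fell with the deposited scaling. The count was 4 higher and 1 lower after median centring and again after scaling to hybridisation controls, and 4 higher and 0 lower without the wt/GFP monolayer array or with moderation without trend. Among all 14349 genes tested, 49.1% changed with the deposited scaling, 30.6% higher and 18.5% lower. The rule was the same, an adjusted p under 0.05 in limma with Benjamini-Hochberg adjustment over all genes. Of these 14349 genes, 2350 were higher and 4641 lower after median centring, and 1074 and 4038 after scaling to hybridisation controls. With moderation without trend, 2646 were higher and 1174 lower. The 4 large rises were those of the receptor NOTCH3 (4.65-fold), the ligand JAG1 (3.86-fold), the target HES1 (3.85-fold) and the ligand DLL1 (2.73-fold). NOTCH1, NOTCH2 and NRARP rose by less than 2-fold, and JAG2 and HEY1 did not pass the test. The median log2 change of the 9 genes was 0.70, against 0.23 for all genes tested. Folds refer to log2(signal + 14.0), which understates the change of dim genes, and every ± below is limma's SE over 4 arrays.

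NOTCH3, JAG1 and HES1 had a promoter in the RefSeq table of build GRCh38.p14, and the 250 bases before their annotated start are shown here because these 3 genes moved together and because RBPJ, which carries the Notch signal, recognises a core of TGGGAA. Capitals mark this core, searched on both strands. The windows were chr3:194135898-194136147 on the plus strand for HES1, chr20:10674000-10674249 on the minus strand for JAG1 and chr19:15200996-15201245 on the minus strand for NOTCH3.
HES1: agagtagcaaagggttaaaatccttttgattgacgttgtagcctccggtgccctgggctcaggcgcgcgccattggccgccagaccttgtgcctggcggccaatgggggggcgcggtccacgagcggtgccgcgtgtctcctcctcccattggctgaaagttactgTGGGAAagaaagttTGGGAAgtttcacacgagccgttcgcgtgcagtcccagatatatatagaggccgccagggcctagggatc
JAG1: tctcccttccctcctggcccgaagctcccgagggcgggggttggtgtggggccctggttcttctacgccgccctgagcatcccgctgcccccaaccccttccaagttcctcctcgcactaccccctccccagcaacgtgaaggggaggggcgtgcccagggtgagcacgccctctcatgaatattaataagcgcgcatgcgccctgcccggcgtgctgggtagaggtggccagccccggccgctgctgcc
NOTCH3: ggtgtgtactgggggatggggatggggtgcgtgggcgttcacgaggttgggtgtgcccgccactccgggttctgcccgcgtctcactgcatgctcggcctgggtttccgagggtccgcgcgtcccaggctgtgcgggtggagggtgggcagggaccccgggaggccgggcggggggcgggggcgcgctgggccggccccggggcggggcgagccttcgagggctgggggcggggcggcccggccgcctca
The HES1 window held 2 copies of the core, both in the direction of the gene, that began 84 and 70 bases before the start. The JAG1 and NOTCH3 windows held 0 copies. Windows were counted for 8 of the 10 members, and DLL1 and HEY1 were left out of the count. Of these 8 windows only that of HES1 held the core. Among 35116 promoter windows of this length, 20.8% held at least 1 copy and 2.9% at least 2. The N-box CACNAG, a motif bound by HES proteins, occurred 3 times in the HES1 window, once in those of NOTCH3 and ATOH1, and in 32.0% of all windows. None of its 3 copies in HES1 overlapped the RBPJ core. A match of letters describes the sequence and does not show that a factor was bound.

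Some facts of the arrays bear on all values. Over all probe sets, median signals were between 67.3 and 68.4 on spheroid arrays and between 48.0 and 48.8 on monolayer arrays, although the trimmed mean of every array was 500.1. The signal ratio of the 3' to the 5' control probe sets of ACTB was between 1.73 and 1.76 in spheroids and between 1.30 and 1.32 in monolayers. This ratio is a sign of RNA quality that moved with the culture condition, and its part in the results was not tested. The same ratio for GAPDH overlapped between the cultures, with values between 0.868 and 0.951 in spheroids and between 0.882 and 0.897 in monolayers. Of 9 colon epithelial markers tested, 5 rose and none fell with the deposited scaling, beside 30.6% higher and 18.5% lower of all genes. The count was 4 higher and 0 lower under quantile normalization, beside 3379 and 3002 of all 14351 genes. It was 2 higher and 1 lower after median centring, beside 2350 and 4641 of all 14349 genes. After scaling to hybridisation controls it was 2 higher and 2 lower, beside 1074 and 4038 of all 14349 genes. CDH1 and CLDN4 rose by 2.36 ± 0.12 and 2.26 ± 0.13 and were called higher under all 4 scalings. EPCAM, KRT8, KRT18 and KRT19 were bright on all arrays. Of these, EPCAM and KRT19 rose by 0.38 and 0.40, while KRT8 and KRT18, at -0.14 and 0.14, did not pass. The dim VIL1, called higher, had a mean log2 signal of 5.16 in monolayers, below the filter at 5.48. CDX2 and LGALS4, also dim, had values of -0.39 and -0.16 and did not pass. CDX1, an intestinal transcription factor, lay below the filter. The summed signal of 6 fibroblast markers was between 2434 and 4059 in spheroids and between 443 and 472 in monolayers, most of it from COL1A1. Of the 3 fibroblast markers tested 2 were called higher, COL1A1 at 3.14 ± 0.15 and the dim COL3A1 at 1.45 ± 0.60 (limma adjusted p = 0.0480). COL3A1 was not called under the other 3 scalings. It passed the filter through the spheroid arrays, with a mean log2 signal of 4.90 in monolayers, below 5.48. DCN, at -0.039, did not pass, and COL1A2, LUM and PDGFRB lay below the filter. The sum of 5 leukocyte markers was between 566 and 607 in spheroids and between 256 and 368 in monolayers. LYZ carried this difference, and PTPRC and CD14 lay below the filter. The sum of 5 endothelial markers was between 261 and 301 in spheroids and between 146 and 183 in monolayers, and 4 of the 5 lay below the filter. The part of these markers in the Notch results was not tested, and in cultures measured whole, fewer cells of a type and less RNA per cell cannot be told apart.

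The ligand JAG1, which encodes a Jagged protein and is widely used by epithelia, had signals of 7589 and 5143 in wt/GFP and wt spheroids, against 1561 and 1656 in wt/GFP and wt monolayers. Both spheroid arrays lay far above both monolayer arrays, and the wt/GFP spheroid array was the highest. The log2 change was 1.95 ± 0.13 (95% interval 1.68 to 2.22, limma adjusted p = 1.65e-12), with 2.27 in wt/GFP and 1.63 in wt. This change lay at percentile 97.0 of the changes of all genes tested. Of 6 probe sets for JAG1, 4 passed the filter and all 4 rose when each probe set was tested alone, by between 1.42 and 1.95. The other 2 were dim, with signals between 4.82 and 20.5 on the 4 arrays.

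DLL1 encodes a Delta-like ligand that in the gut is displayed by cells of the secretory fate. Its signals were 402 and 327 in wt/GFP and wt spheroids, against 125 and 122 in wt/GFP and wt monolayers. The groups did not overlap, and within a culture condition the lines lay close together. The log2 change was 1.45 ± 0.26 (95% interval 0.92 to 1.97, limma adjusted p = 2.75e-05), with 1.58 in wt/GFP and 1.32 in wt. A second probe set for DLL1 was below the filter, with signals between 2.78 and 14.8.

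JAG2 encodes the other Jagged ligand. Its brighter probe set had signals of 1231 and 1303 in wt/GFP and wt spheroids, against 1608 and 1519 in wt/GFP and wt monolayers. Both spheroid arrays lay below both monolayer arrays. The log2 change of -0.30 ± 0.13 did not pass over all genes (95% interval -0.57 to -0.034, limma adjusted p = 0.0570). It passed as lower after median centring (-0.69) and after scaling to hybridisation controls (-0.89), under which the median of all genes also fell, and also without the wt spheroid array (-0.34). The other JAG2 probe set had signals of 841 and 717 in wt/GFP and wt spheroids, against 820 and 866 in monolayers of wt/GFP and wt, so its groups overlapped.

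**Figure D1:**
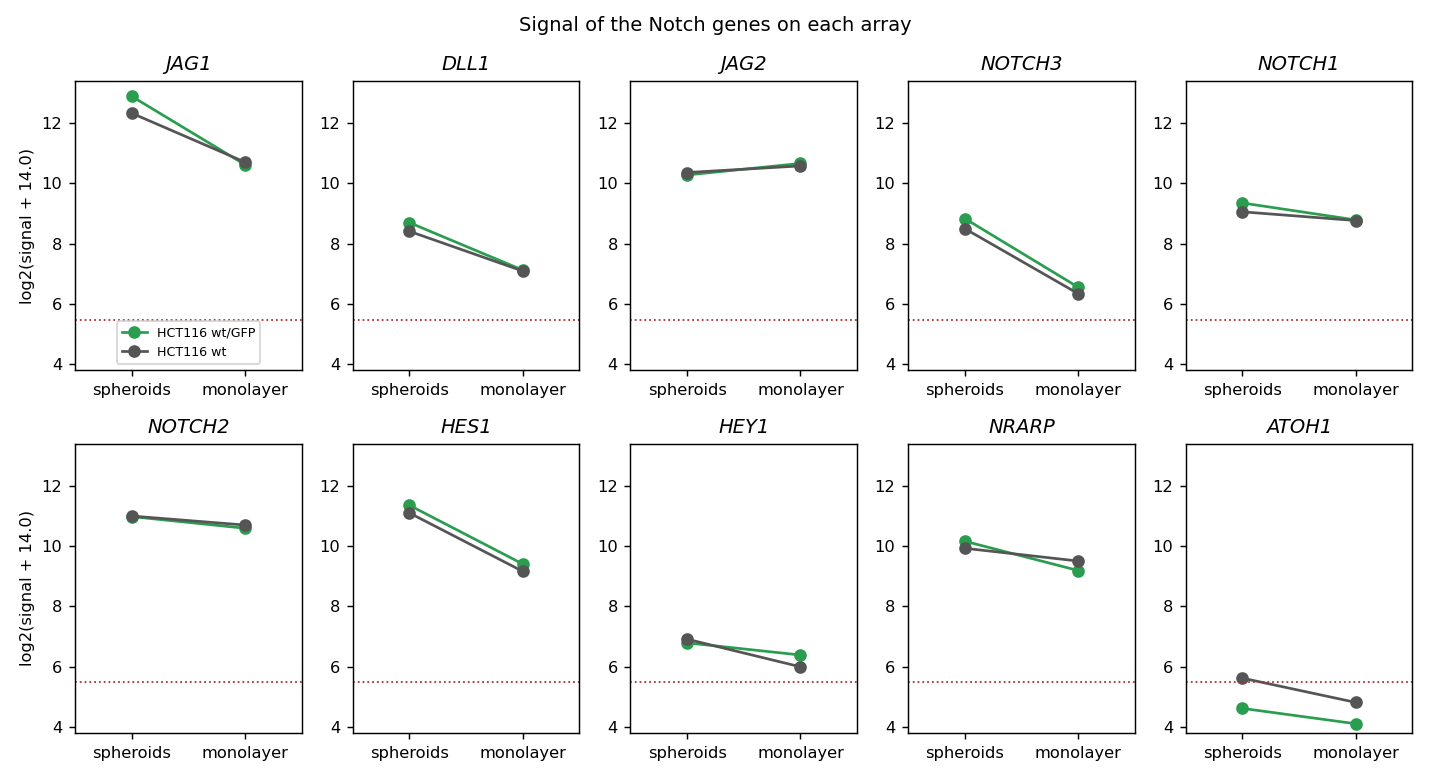
Signal of each Notch gene on the 4 arrays as log2(signal + 14.0), from the probe set used for the gene, with spheroids on the left, monolayer on the right and a line joining the arrays of 1 cell line. The dotted line is the filter on low values at 5.48. JAG1, DLL1, NOTCH3 and HES1 slope down from spheroids to monolayer in both lines, JAG2 slopes up slightly, and ATOH1 lies near or below the filter.

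Among the receptors, NOTCH3, which is best known from vascular smooth muscle and is itself a Notch target in several cell types, had signals of 443 and 348 in wt/GFP and wt spheroids, against 80.2 and 67.2 in wt/GFP and wt monolayers. All spheroid values were several-fold above the monolayer values, and the lines lay much closer to each other than the cultures did. The log2 change of 2.22 ± 0.28 (95% interval 1.64 to 2.79, limma adjusted p = 1.77e-07) was 2.28 in wt/GFP and 2.16 in wt and lay at percentile 98.2 of all genes tested. A second NOTCH3 probe set did not follow it, with signals of 89.4 and 30.6 in wt/GFP and wt spheroids, against 56.1 and 56.8 in monolayers of wt/GFP and wt. Its log2 change was -0.053 ± 0.49 and did not pass (limma adjusted p = 0.946 over 27038 probe sets). With the mean of both probe sets, the NOTCH3 change became 1.08 and still passed (limma adjusted p = 0.0205). The rise of NOTCH3 thus rests on 1 of 2 probe sets.

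NOTCH1 is the receptor that, with NOTCH2, keeps intestinal progenitors from the secretory fate. It had signals of 639 and 519 in wt/GFP and wt spheroids, against 428 and 422 in wt/GFP and wt monolayers. The arrays did not overlap, but the change of 0.43 ± 0.18 lay just inside the threshold (limma adjusted p = 0.0497), and it was 0.56 in wt/GFP and 0.29 in wt. The call was lost without either monolayer array or without the wt/GFP spheroid array (changes of 0.28 to 0.44), and the change became -0.17 after scaling to hybridisation controls. NOTCH1 was called under 4 of 16 alternatives. The other NOTCH1 probe set was dim, with signals between 3.47 and 9.31.

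NOTCH2 had signals of 2007 and 2034 in wt/GFP and wt spheroids, against 1532 and 1650 in wt/GFP and wt monolayers. The change of 0.34 ± 0.12 was small and alike in the lines, 0.39 in wt/GFP and 0.30 in wt (limma adjusted p = 0.0225). All 4 NOTCH2 probe sets passed the filter and had values between 0.32 and 0.52, of which 2 passed when tested alone. The call was lost without either monolayer array (changes of 0.29 to 0.40), and the change became -0.048 after median centring and -0.25 after scaling to hybridisation controls. NOTCH2 has near-identical partial copies, the NOTCH2NL genes, so these probe sets may read them too. A probe set annotated to NOTCH2 together with 4 NOTCH2NL genes, and therefore no member, had signals of 383 and 352 in wt/GFP and wt spheroids, against 750 and 643 in wt/GFP and wt monolayers, the opposite order to the 4 member probe sets.

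**Figure D2:**
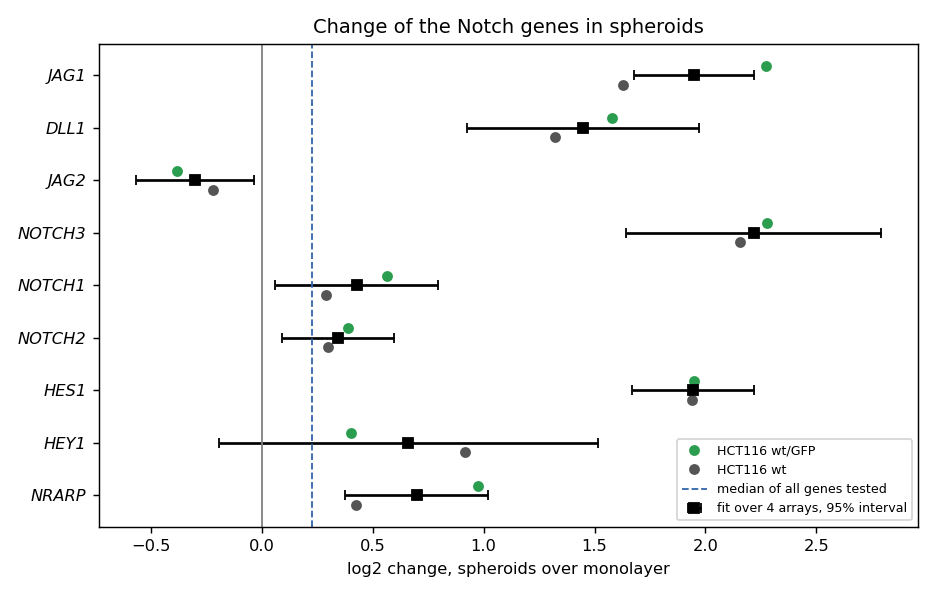
Log2 change in spheroids over monolayer for the 9 tested Notch genes, with the fitted value and its 95% interval over 4 arrays as squares and bars, and the change within each line as circles. The dashed line is the median change of all genes tested, 0.23. NOTCH3, JAG1, HES1 and DLL1 lie apart from the other 5 genes, and the interval of HEY1 spans 0.

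Among the target genes, HES1, a basic helix-loop-helix repressor and the classical Notch target in the crypt, had signals of 2608 and 2184 in wt/GFP and wt spheroids, against 665 and 559 in wt/GFP and wt monolayers. The spheroid arrays were both near 4 times their own monolayer array, at 3.92 in wt/GFP and 3.91 in wt. The log2 change was 1.94 ± 0.13 (95% interval 1.67 to 2.22, limma adjusted p = 2.31e-12), with 1.95 in wt/GFP and 1.94 in wt. Its second tested probe set rose by 1.40 ± 0.16, with signals of 1178 and 1219 in wt/GFP and wt spheroids, against 485 and 408 in wt/GFP and wt monolayers. The third HES1 probe set lay below the filter, with signals between 0.971 and 31.1. The HES1 promoter is the window shown above with 2 copies of the RBPJ core.

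NRARP, a small ankyrin repeat protein that is induced by Notch and limits it by binding the receptor's intracellular part, had signals of 1133 and 961 in wt/GFP and wt spheroids, against 571 and 713 in wt/GFP and wt monolayers. The groups did not overlap, but the size differed between the lines, with 0.97 in wt/GFP and 0.42 in wt. The log2 change of 0.70 ± 0.16 passed (95% interval 0.38 to 1.02, limma adjusted p = 0.000518). It did not pass without the wt/GFP monolayer array (0.54, adjusted p = 0.0545), with moderation without trend (0.70, adjusted p = 0.0913), after median centring (0.31), or after scaling to hybridisation controls, where it was 0.11.

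HEY1, a Hairy-related repressor induced by Notch in many tissues, had signals of 96.6 and 106 in wt/GFP and wt spheroids, against 69.6 and 49.8 in wt/GFP and wt monolayers. The groups did not overlap, but the gene was dim and the change of 0.66 ± 0.42 did not pass (95% interval -0.19 to 1.51, limma adjusted p = 0.197), so a rise of the size seen for NRARP could not be told from no change at this brightness. ATOH1 lay below the filter and was not tested. Its signals were 10.5 and 35.1 in wt/GFP and wt spheroids, against 3.19 and 14.1 in wt/GFP and wt monolayers, with the groups overlapping. A signal this low gives no reliable level, so nothing can be read about ATOH1 beside the rise of its repressor HES1.

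Both spheroid arrays lay above both monolayer arrays for 8 of the 9 tested genes, against 47.1% of all genes tested, and below them for JAG2, against 26.5% of all genes. When every probe set was tested alone, 18 of the 25 member probe sets passed the filter, 11 rose and none fell with the deposited scaling, compared with 42.7% of 27038 probe sets that changed, 26.6% higher and 16.1% lower. After median centring 8 were higher and 2 lower, and after scaling to hybridisation controls 8 were higher and 1 lower. Among all called genes, rather than probe sets, 33.6% and 21.0% were higher under these 2 scalings. With the deposited scaling the 7 member probe sets that were tested but not called belonged to HEY1, JAG2, NOTCH1, NOTCH2 and NOTCH3. Adjusted over all probe sets in limma, the p of NOTCH1 was 0.0554.

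**Figure D3:**
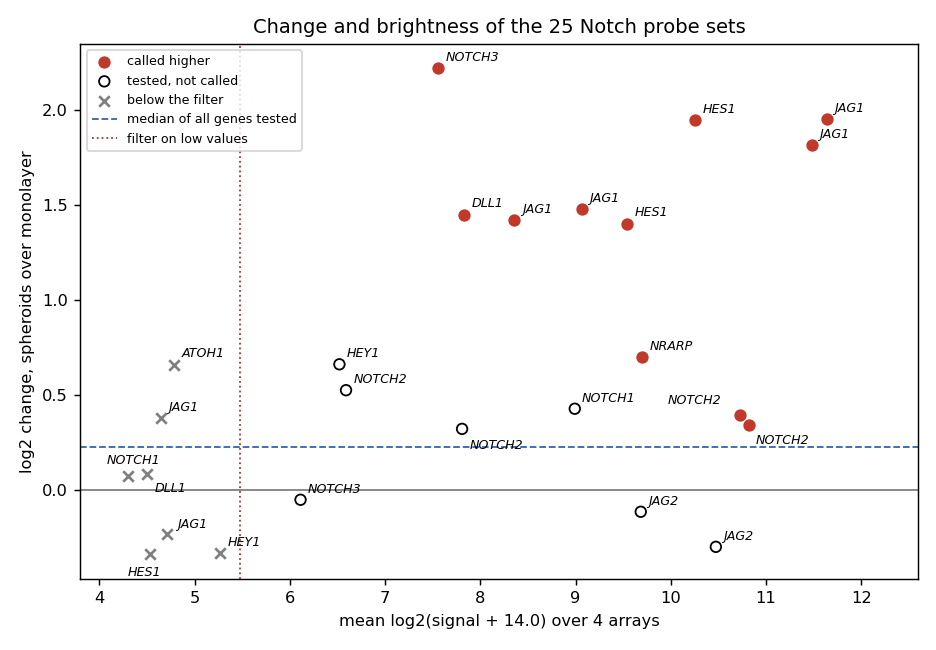
Each of the 25 Notch probe sets by its mean log2(signal + 14.0) over the 4 arrays and its log2 change in spheroids over monolayer, marked as called higher, tested but not called, or below the filter. The 7 probe sets left of the dotted filter line at 5.48 have no test, and the called ones with a change above 1 belong to NOTCH3, JAG1, HES1 and DLL1.

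The arrays are scaled to a common trimmed mean, and the median log2 change of all genes depended on that scaling. It was 0.23 as deposited, 0.019 with quantile normalization, -0.17 with each array centred on its median and -0.37 with arrays scaled to hybridisation controls, which are spiked bacterial and phage transcripts. JAG1, DLL1, NOTCH3 and HES1 were called higher under each of these 4 scalings. JAG1 ranged from 1.36 to 2.03 over them, HES1 from 1.35 to 1.94, NOTCH3 from 1.63 to 2.22 and DLL1 from 0.86 to 1.45. With the deposited scaling NOTCH1 and NOTCH2 lay only 0.20 and 0.12 above the median of all genes.

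**Figure D4:**
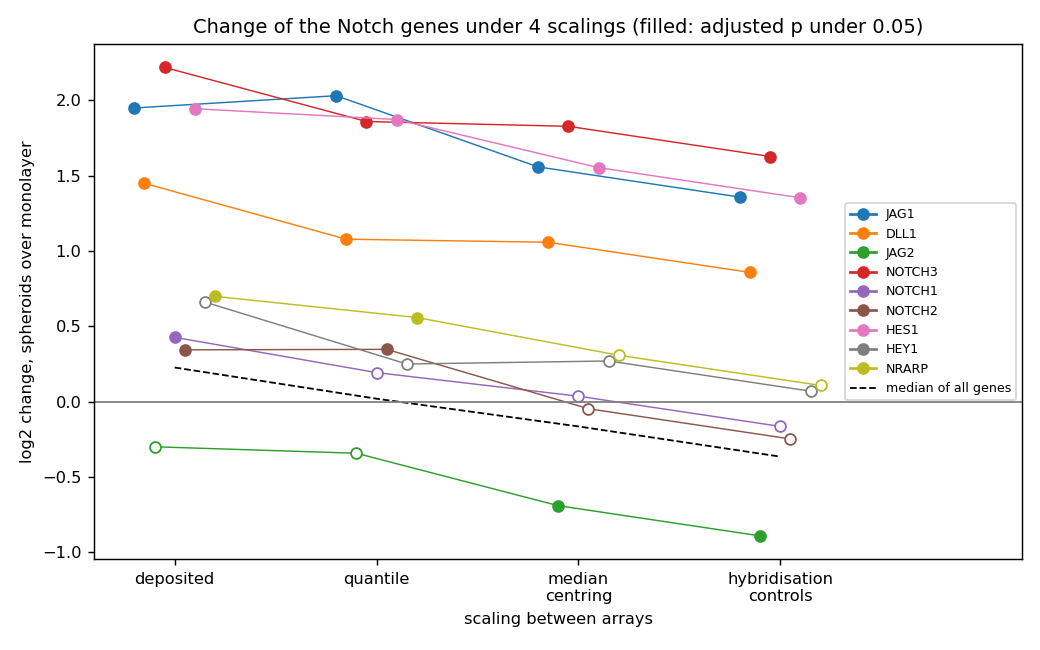
Log2 change in spheroids over monolayer of the 9 tested Notch genes under 4 scalings between arrays, filled where the adjusted p was under 0.05, with the median of all genes as a dashed line. JAG1, DLL1, NOTCH3 and HES1 stay filled and above 0.8 throughout, NOTCH1 and NOTCH2 run closer to the dashed line than those 4, and JAG2 is filled under the last 2 scalings.

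The other genes of the pathway were read from 8 lists with 73 genes, of which 66 had a probe set and 58 were tested. In spheroids 20 rose and 1 fell, which is 34.5% and 1.72% of those tested, beside 30.6% and 18.5% of all genes. Their median log2 change was 0.32. The calls depended on the scaling. Under quantile normalization 17 were higher and 4 lower, beside 3379 and 3002 of all 14351 genes. After median centring 13 were higher and 16 lower, beside 2350 and 4641 of all 14349 genes. After scaling to hybridisation controls 9 were higher and 9 lower, beside 1074 and 4038 of all 14349 genes. The sign of the change was the same under all 4 scalings for 30 of the 58 genes and for 17 of the 21 called ones, and it turned for the called genes EP300, KAT2A, SPEN and TLE3.

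The machinery that cuts the receptor was split. Of 8 tested genes 4 rose. APH1B, a gamma-secretase subunit, rose by 1.73 ± 0.26. ADAM10 and ADAM17, the proteases of the outer cut, rose by 1.29 ± 0.12 and 0.79 ± 0.12. FURIN, which cleaves the receptor as it matures, rose by 0.85 ± 0.30 but was not called under the other 3 scalings (0.26 to 0.46). The ADAM17 call was lost after scaling to hybridisation controls (0.20). ADAM10 had signals of 11323 and 10819 in wt/GFP and wt spheroids, against 4381 and 4684 in wt/GFP and wt monolayers, and with APH1B it was called under all 4 scalings, although the other APH1B probe set, at 0.63, did not pass alone. The other gamma-secretase subunits tested, NCSTN, PSENEN, PSEN2 and APH1A, had values between -0.36 and -0.049 and did not pass. NCSTN was called lower under the other 3 scalings (-0.63 to -0.95), and PSENEN and APH1A after median centring (-0.50 and -0.52).

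In the nuclear complex 5 of 9 genes rose and 1 fell. MAML3, a Mastermind coactivator, had signals of 463 and 420 in wt/GFP and wt spheroids, against 37.3 and 43.3 in wt/GFP and wt monolayers, and rose by 3.07 ± 0.31. MAML2 rose by 1.92 ± 0.29, whereas MAML1 had a value of 0.076 that did not pass and was called lower after median centring (-0.31). RBPJ, the DNA-binding partner, had signals of 6332 and 5475 in wt/GFP and wt spheroids, against 2930 and 3249 in wt/GFP and wt monolayers, and rose by 0.93 ± 0.12. Both other RBPJ probe sets also rose, but the call was lost after scaling to hybridisation controls (0.34). KAT2A, a histone acetyltransferase, rose by 0.55 ± 0.16, a change of -0.040 after that scaling. SNW1, a splicing factor that binds the Notch complex, fell by 0.47 ± 0.12. SNW1, MAML2 and MAML3 kept their calls under all 4 scalings.

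Of 8 tested corepressors, 4 rose. TLE2 and TLE1, Groucho relatives that HES proteins recruit, rose by 1.39 ± 0.15 and 0.96 ± 0.15, TLE3 by 0.49 ± 0.19 and SPEN, a repressor that binds RBPJ, by 0.41 ± 0.13. TLE2 was called under all 4 scalings, while the TLE1 call was lost after scaling to hybridisation controls (0.37). TLE3 was not called under the other 3 scalings, and SPEN was not called after median centring or scaling to hybridisation controls. Under the latter, TLE3 and SPEN turned to -0.10 and -0.18. TLE1 and SPEN each had 1 other probe set of opposite sign. CTBP1, CTBP2, HDAC1 and HDAC2 had values between -0.073 and 0.18 and did not pass. CTBP1, CTBP2 and HDAC2 were called lower after median centring (-0.46, -0.45 and -0.44). They were also called lower after scaling to hybridisation controls (-0.66, -0.65 and -0.64). HDAC1 was called higher under quantile normalization (0.29).

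Of 11 tested genes of ligand and receptor turnover, 4 rose. MIB1, the ubiquitin ligase that activates Notch ligands by driving their endocytosis, had signals of 4111 and 3342 in wt/GFP and wt spheroids, against 1427 and 1429 in wt/GFP and wt monolayers, and rose by 1.37 ± 0.12. DTX3L and DTX4, of the Deltex ubiquitin ligase family, rose by 1.40 ± 0.15 and 1.13 ± 0.22, and ITCH, a ubiquitin ligase, by 0.67 ± 0.13, while none of the 4 other ITCH probe sets passed alone. MIB1 and DTX3L held under all 4 scalings. DTX4 and ITCH were not called after scaling to hybridisation controls (0.54 and 0.080). NUMBL and MIB2, not called with the deposited scaling, were called lower after median centring (-0.66 and -0.58). They were also called lower after scaling to hybridisation controls (-0.86 and -0.78). FBXW7 was called lower after median centring (-0.55). Of 5 glycosylation enzymes only RFNG, a Fringe glycosyltransferase, rose, by 0.78 ± 0.19, and it was not called after median centring.

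Of 6 other ligands and receptors only DNER, a non-canonical ligand known from the nervous system, rose, with signals of 1339 and 917 in wt/GFP and wt spheroids, against 230 and 254 in wt/GFP and wt monolayers. Its log2 change was 2.13 ± 0.18 and held under all 4 scalings, whereas DLL3, DLL4 and NOTCH4 had values of 0.39, 0.21 and 0.38 and did not pass. DLK2, a non-canonical Delta-like protein, had a value of -0.61 that did not pass (limma adjusted p = 0.0577), and it was called lower under the other 3 scalings (-0.97 to -1.20). None of the 5 other HES and HEY factors tested passed with the deposited scaling, with values between -0.16 and 0.28. After median centring HES4 and HES6 were called lower (-0.35 and -0.55). Under quantile normalization and scaling to hybridisation controls none of these factors was called. HES4 had signals of 1409 and 1366 in wt/GFP and wt spheroids, against 1351 and 1348 in wt/GFP and wt monolayers, beside the rise of HES1. Of 6 tested genes of the secretory lineage, LYZ, the lysozyme of Paneth cells and also of leukocytes, had signals of 328 and 290 in wt/GFP and wt spheroids, against 9.61 and 32.0 in wt/GFP and wt monolayers. It was called higher, but it passed the filter through the spheroid arrays, with a mean log2 signal of 5.04 in monolayers, so the fitted change of 3.29 ± 0.40 against such dim signals is no exact size. MUC2, CHGA, NEUROG3 and AGR2 lay below the filter.

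**Figure D5:**
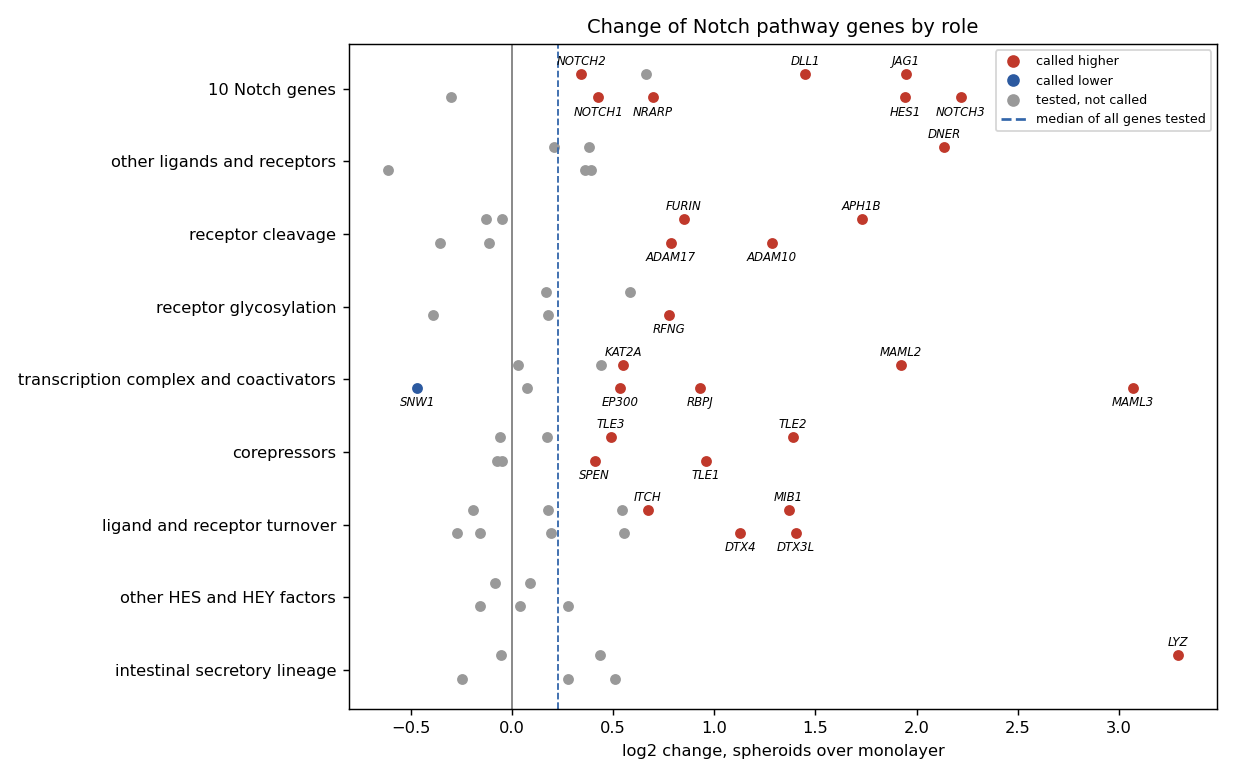
Log2 change in spheroids over monolayer of every tested gene of the Notch pathway lists, 1 row per role. Colour gives the call at an adjusted p under 0.05 with the deposited scaling. The dashed line is the median of all genes tested. Called genes with changes above 1 occur in the rows of the 10 Notch genes, cleavage, coactivators, corepressors and turnover, with DNER and LYZ as the only called genes of their rows and no called gene among the other HES and HEY factors.

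The lines themselves were also compared, wt/GFP against wt with culture condition as a block. None of the 9 Notch genes passed, and 4 of 14349 genes (0.0279%) did by limma's adjusted p. At an unadjusted p under 0.05 in limma the count was 0 of 9 Notch genes and 936 of all genes. The differences ran between -0.062 for NOTCH2 and 0.27 for NOTCH3. JAG1 averaged a log2 signal of 11.8 in wt/GFP and 11.5 in wt, a difference of 0.24 ± 0.13 (95% interval -0.032 to 0.51, limma adjusted p = 0.802).

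The genes whose profile over the 4 arrays was most like that of NOTCH3, the Notch gene with the largest change in the probe set and scaling used here, were FAM110C, TCN1 and VPS13A. Likeness was the Euclidean distance between log2 profiles centred on their mean, and it was 0.040, 0.098 and 0.11. With only 4 arrays it says little more than that their changes, between 2.13 and 2.24, were of the same size.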

How the data were processed

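Per the labels' protocols, biotinylated cRNA was made from column-purified total RNA. The deposited values are linear intensities that the authors made with MAS5, per the submitters' processing notes. Its version and settings were not given in the sources used here. The trimmed mean, leaving out 2% at each end, was 500.1 on every array, so a broad change of RNA content is not visible. Detection calls were not used here, and the number of arrays limits the precision.

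Names came from the platform's annotation, possibly outdated, with current symbols looked up by gene identifier. Of the probe sets other than controls, 41091 named 1 gene, 1801 named more than 1 and 11721 named none. Signals became log2(signal + 14.0), the pseudocount being the 25th percentile of all values. Probe sets whose mean passed the 40th percentile, 5.48, were kept, and each gene took its brightest one. limma 3.58.1 in R 4.3.3 fitted culture condition with cell line as block, with trend, 1 residual and 25.9 prior degrees of freedom, so an SE rests mainly on other genes of like brightness. Tests were two-sided. The pairing comes from the line the labels give for each array; over all genes, the line differences in spheroids and in monolayers correlated at 0.00684. In simulated data for spheroids against monolayer, the fit recovered 67% of 2-fold and 94% of 4-fold changes, with 200 of 14349 genes changed. Of its 169 calls 8 were false. The simulation had no line difference and a far smaller share of changed genes than the 49.1% called in the data. Its rates therefore do not carry over to the data.

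The Notch genes and all gene lists were chosen with earlier results of these data known. All 10 genes are named, and of each other list up to 4 called genes with the largest change; uncalled genes named beside them were chosen after their values were seen. Alternatives were 3 scalings, 2 pseudocounts, 2 filters, 2 ways of joining probe sets, 2 moderations, no block, and leaving out each array. Promoter sequences are from RefSeq.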

Additional observations from a re-analysis of the deposited data

Results flagged for a closer look

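Of the 25 Notch probe sets, 6 changed in opposite directions in the 2 lines. With 1 array for each line and condition, these differences were not tested, and 4 of the 6 probe sets lay below the filter on low values.

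The second NOTCH3 probe set had a log2 change of 0.56 in wt/GFP and -0.67 in wt, a difference of 1.23, whereas the probe set used for the gene rose in both lines. The dimmer JAG2 probe set had 0.036 in wt/GFP and -0.27 in wt, a difference of 0.30. Below the filter, a HEY1 probe set had 0.50 in wt/GFP and -1.16 in wt (difference 1.66), and a HES1 probe set had 0.33 and -1.01 (1.33). A JAG1 probe set below the filter had -0.10 in wt/GFP and 0.86 in wt (-0.96), and a DLL1 probe set had -0.14 and 0.31 (-0.45).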

How the results depend on the processing

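JAG1, DLL1, NOTCH3 and HES1 kept their direction and call under each alternative in which they were tested, 15 for each gene, with log2 changes of 1.36 to 2.23, 0.86 to 1.59, 1.08 to 2.42 and 1.35 to 2.07 in that order. Without probe sets shared between transcripts none of the 4 could be tested, and 1 of the 3 Notch genes left was called. The count of called Notch genes was 4 with moderation without trend, where the calls of all genes were 3820 in place of 7050. Without 1 array, in fits with no line term in which a lone array is assumed to vary like the others, it lay between 4 and 8, that of member probe sets between 8 and 13, and that of all genes between 5455 and 6404. Without the cell line block 6 Notch genes, 11 probe sets and 6627 genes were called, and NOTCH1 alone of the members lost its call (adjusted p = 0.0568). NOTCH1 reversed to -0.17 after scaling to hybridisation controls, and NOTCH2 to -0.048 after median centring and -0.25 after scaling to hybridisation controls. Each of these 2 scalings shifts the fitted changes of all genes by the same amount, which was downward here. Median signals were higher on the spheroid arrays. The hybridisation controls were also higher there, by a median log2 of 0.39 in wt and 0.78 in wt/GFP. Of all called genes, 62.3% were higher with the deposited scaling, 33.6% after median centring and 21.0% after scaling to hybridisation controls. HEY1 did not pass under any of its 14 alternatives, and JAG2 passed as lower under 5 of 16. No alternative called a Notch gene between wt/GFP and wt. Dim signal limits HEY1, ATOH1 and 7 of the 25 probe sets.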
